A study of Mus musculus with 8 samples.

Results

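Triglyceride inside a cell is stored in lipid droplets, and the genes described here encode proteins that coat the droplets, break down their triglyceride, or carry out the last step of its synthesis. The 10 genes were taken as a functional group by symbol, *Plin2*, *Plin3*, *Plin4*, *Plin5*, *Pnpla2*, *Abhd5*, *G0s2*, *Hilpda*, *Dgat1* and *Dgat2*. All 10 were found among the 27179 genes counted in neonatal cardiomyocytes (NCMs). RNA was sequenced from NCMs of C57Bl/6 J male pups on postnatal day 0, with 4 libraries from pups of dams kept in filtered air (FA replicates 2, 3, 4 and 6) and 4 from pups of dams exposed to diesel exhaust (DE replicates 1, 3, 5 and 7). Exposure of the dams covered most of gestation, so that DE here means an exposure before birth. Each library came from 1 heart that had been trimmed of atria and vessels, dissociated and pre-plated to let fibroblasts attach. The litters of the pups are not given in the sources used here, so p-values measure the spread between pups that may share a dam.

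Fatty acid that enters a cardiomyocyte is either burned in mitochondria or esterified to triglyceride by DGAT enzymes and held in droplets. Perilipins, the proteins that Plin genes encode, coat the droplet surface and govern the access of lipases. ATGL, encoded by *Pnpla2*, makes the first cut of stored triglyceride. It is activated by the protein of *Abhd5* and inhibited by those of *G0s2* and *Hilpda*. In the heart, this stored triglyceride is a source of fuel as well as of ligands for the nuclear receptor PPAR alpha.

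Levels are given in CPM, counts scaled to library size and normalized between libraries by the TMM method. Log2 fold changes are DE against FA, from edgeR's quasi-likelihood test over 14966 genes that passed a filter on low counts, with Benjamini-Hochberg adjustment. To be called, a gene had to reach both an adjusted p of 0.05 and a difference of 25%. Totals ran from 17943024 to 39839737 counts per library, with a biological coefficient of variation of 15.9%. Pairs of libraries of 1 group differed by a chi-square of at least 5.06 per gene (FA replicates 2 and 4), so none was a copy of another. FA replicates 3 and 6 were the next closest FA pair (18.4), and the remaining FA pairs ran from 27.8 to 43.2. Why FA replicates 2 and 4 were so close was not tested. In DE, the closest pairs were replicates 1 and 7 (16.0), which carry the number 11 in their names, and replicates 3 and 5 (20.2), which carry the number 12. All FA libraries carry the number 11, and what it stands for is not given in the sources used here. Defining cardiomyocyte genes were abundant in every library, with *Tnnt2* at 6807 CPM or more and *Actc1* at 9832 CPM or more.

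*Plin5* and *Dgat2* were lower in DE than in FA, and the other 7 measured members were not called. *Plin5* fell by 65.4% and *Dgat2* fell by 39.7%. Over all 14966 genes, 868 (5.80%) were called in either direction with 332 (2.22%) lower and 536 (3.58%) higher. FA and DE libraries were fully separated in CPM for these 2 members and overlapped for the other 7, where 14.7% of all tested genes had groups that did not overlap. At an unadjusted p under 0.05, 4 of the 9 members were lower and 0 were higher, against 25.6% of all genes in either direction. DESeq2 also called 2 members, out of 1633 genes it called in all. The median log2 fold change of the 9 was -0.27, and that of all tested genes was 0.00. The count of 868 depended on single libraries. Leaving out FA replicate 4, 2 or 3 gave 237, 249 and 433 genes. Leaving out DE replicate 3 or 5 gave 268 and 526.

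**Figure D1:**
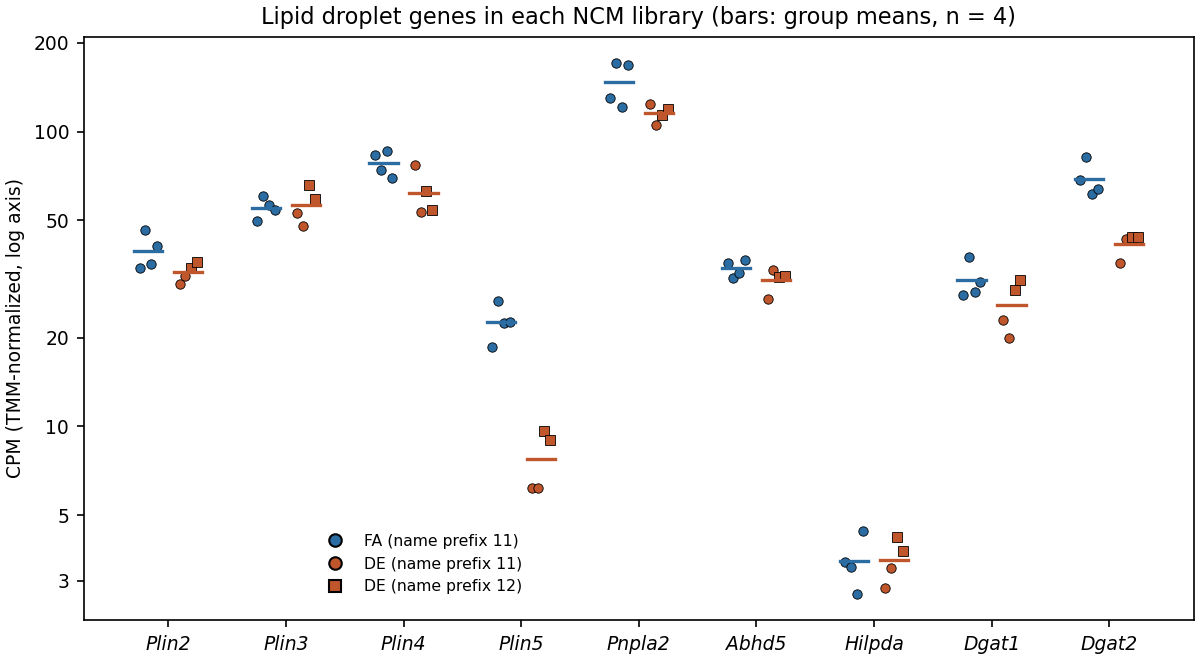
CPM of the 9 members with counts in each of the 8 NCM libraries, on a log axis, where points are libraries, squares are the DE libraries with the number 12 in their names, and bars are group means (n = 4). The FA and DE points of *Plin5* and *Dgat2* lie apart, and those of the other 7 genes overlap.

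*Plin5* encodes the perilipin of oxidative tissues, which tethers droplets to mitochondria. It lies on chromosome 17 of GRCm38.p6 (the assembly also called mm10) from 56111597 to 56117606. Its level was 18.6, 26.6, 22.4 and 22.6 CPM in FA replicates 2, 3, 4 and 6, and 6.17, 9.64, 8.98 and 6.18 CPM in DE replicates 1, 3, 5 and 7. The lowest FA library was thus well above the highest DE library. The mean went from 22.6 ± 3.24 to 7.74 ± 1.83 CPM (SD, n = 4), with a log2 fold change at -1.53 ± 0.17 (SE, adjusted p = 0.000919). These values rest on 116 to 697 counts per library. *Plin5* was called in each of the 17 alternative analyses, with log2 fold changes from -1.87 to -1.43. Among the DE libraries it was lower in both with the number 11 than in both with the number 12. With only the 6 libraries numbered 11, the log2 fold change was -1.87 (adjusted p = 0.000557).

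Promoter sequences were available for 8 of the 10 members, from RefSeq on GRCm38.p6, and the 250 bases before each listed start were searched on both strands. The stretch before *Plin5*, the member with the largest difference, is shown because it holds one AGGTCA, the half-site that nuclear receptors of the PPAR and RXR type recognise. It runs over chr17:56117607-56117798 on the minus strand, ahead of the annotated gene, with AGGTCA in capitals.
Plin5 upstream: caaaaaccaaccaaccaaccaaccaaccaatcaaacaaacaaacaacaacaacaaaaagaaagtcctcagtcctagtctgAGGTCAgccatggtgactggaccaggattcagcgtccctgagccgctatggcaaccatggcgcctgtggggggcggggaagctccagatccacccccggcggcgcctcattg
The half-site lay 170 bases before the first of 2 listed starts of *Plin5*, and the window before the second held no match. AGGTCA was also found before *Plin2* (218 bases) and *Abhd5* (69 bases), on the other strand. It is held by 13.8% of 27025 promoters of the same length, 1 per gene (the first listed start). The full PPAR response element (a direct repeat of the half-site with 1 base between) was found at no listed start of the 8 genes and in 0.037% of all promoters. The letters TATAAA, typical of core promoters, were found at no listed start of the 8 genes either, against 13% of all promoters. AGGTCA alone was added to the search after the sequences had been read.

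*Plin4* is the neighbour of *Plin5*, 1648 bases downstream on the same strand, and encodes a perilipin found on small droplets of adipocytes and muscle. In FA replicates 2, 3, 4 and 6 it was at 83.4, 73.8, 86.2 and 69.4 CPM, and in DE replicates 1, 3, 5 and 7 at 76.9, 63.1, 54.3 and 53.5 CPM. DE replicate 1 lay inside the FA range, and the other DE libraries lay below it. The log2 fold change was -0.34 (95% interval -0.62 to -0.05, adjusted p = 0.140), so *Plin4* was not called. Without DE replicate 1 it was called, at -0.46 (adjusted p = 0.0407, range 0.0407 to 0.884 over the alternatives). *Plin4* overlaps *Hdgfl2* in the annotation, and the strand setting of the counting is not given in the sources used here. Both neighbours hold TATAAG shortly before a listed start, in capitals below, a match noticed on reading the sequences. Both of these starts lie inside the annotated span of their gene, and so do the stretches shown. It is present in 6.81% of all promoters. Each line gives 30 bases, from chr17:56117558-56117587 and chr17:56109797-56109826, both on the minus strand.
Plin5 start: acccagacctgcTATAAGgacggagggctg
Plin4 start: ctccccagacccTATAAGgcttggggattg

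*Plin2* encodes the perilipin found on the droplets of most cells, and *Plin3* encodes one that moves between the cytosol and new droplets. *Plin2* was at 34.6, 46.5, 35.6 and 40.8 CPM in FA replicates 2, 3, 4 and 6 and at 30.5, 34.5, 36.0 and 32.4 CPM in DE replicates 1, 3, 5 and 7. The annotated span of the gene (chromosome 4 from 86626910 to 86670217) overlaps that of a transcribed pseudogene, *Gm12551*. Whether any reads of the pseudogene were counted for *Plin2* was not tested. The groups overlapped at their edges, between the lower FA and the upper DE libraries. Its log2 fold change of -0.24 (95% interval -0.49 to 0.01, adjusted p = 0.216) did not pass. *Plin3* had means of 55.2 ± 4.46 (FA) and 56.4 ± 7.79 CPM (DE, SD, n = 4), with a log2 fold change of 0.03 (95% interval -0.22 to 0.28). The interval for *Plin3* leaves out a fall as large as that of *Plin5* or *Dgat2*. The sign of its estimate changed with the libraries used, from -0.14 with the 6 libraries numbered 11 to 0.10 without DE replicate 7, and under no setting was it called.

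To compare 2 coats without any scaling between libraries, the counts of *Plin5* were divided by those of *Plin2* in the same library. The ratio was 0.538, 0.571, 0.629 and 0.554 in FA replicates 2, 3, 4 and 6, and 0.203, 0.279, 0.249 and 0.191 in DE replicates 1, 3, 5 and 7. Every DE library thus had fewer *Plin5* counts per *Plin2* count than any FA library. The difference of the mean log2 ratios was -1.33 (two-sided exact permutation p = 0.0286, the smallest that 4 against 4 libraries allow). Adjusted over the 2 ratios tested, this exact p was 0.0571, which misses 0.05. The 6 libraries numbered 11 gave -1.54, where an exact test of 4 against 2 cannot go below 0.0667.

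**Figure D2:**
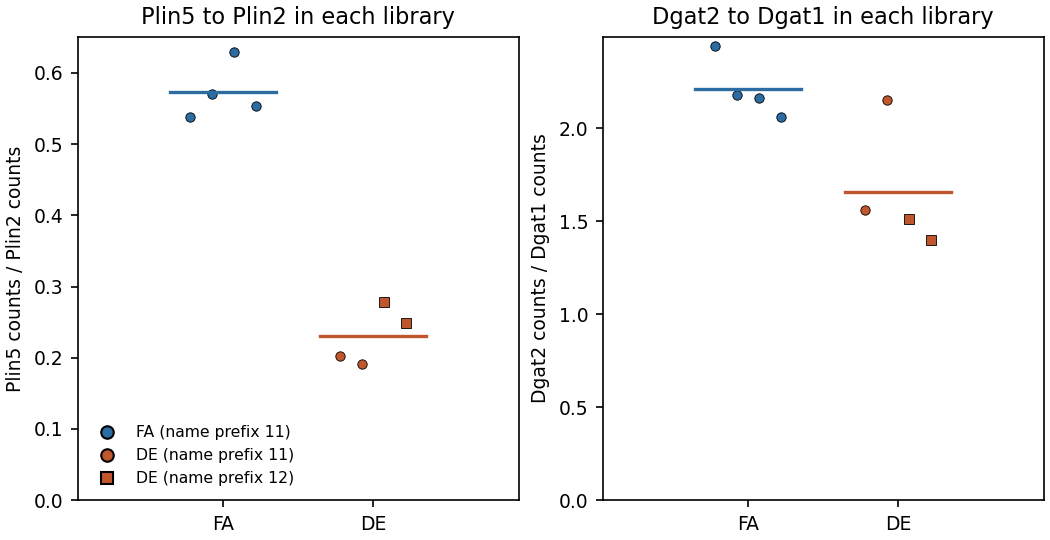
Counts of *Plin5* over counts of *Plin2* (left) and of *Dgat2* over *Dgat1* (right) in each library, on linear axes from 0, where points are libraries, squares are DE libraries with the number 12, and bars are group means (n = 4). The groups lie apart for *Plin5* to *Plin2*, whereas DE replicate 7, at 2.15, lies within the FA range for *Dgat2* to *Dgat1*.

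*Pnpla2* (chromosome 7 from 141455188 to 141460743) encodes ATGL, and was the most abundant member per kb of exon in both groups. It was at 130.2, 170.5, 120.9 and 168.3 CPM in FA replicates 2, 3, 4 and 6, and at 123.6, 113.9, 119.7 and 105.6 CPM in DE replicates 1, 3, 5 and 7. FA replicates 3 and 6 stood above all others, and FA replicates 2 and 4 lay near the DE libraries. Its log2 fold change was -0.35 (95% interval -0.63 to -0.07, unadjusted p = 0.0179, adjusted p = 0.117), so it was not called, nor was it under any alternative. *Abhd5*, which encodes the co-activator of ATGL, had means of 34.4 ± 2.25 (FA) and 31.4 ± 3.03 CPM (DE, SD, n = 4). The log2 fold change of *Abhd5* was -0.13 (95% interval -0.36 to 0.09).

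*Hilpda* (chromosome 6 from 29272488 to 29275449), a hypoxia-inducible inhibitor of ATGL, was the member with the fewest counts among those detected. It was at 3.48, 3.34, 2.71 and 4.43 CPM in FA replicates 2, 3, 4 and 6, and at 2.84, 4.22, 3.77 and 3.30 CPM in DE replicates 1, 3, 5 and 7, from 48 to 151 counts per library. The groups covered nearly the same range. The log2 fold change was 0.02 with a 95% interval from -0.39 to 0.43. The sign also changed with the libraries used, from -0.20 with the 6 numbered 11 to 0.15 without FA replicate 6. The second of its 2 listed starts is preceded by ACGTG, the core that hypoxia-inducible factors recognise, which 16.6% of promoters at first listed starts hold and which no other member with a sequence has. The 30 bases around it, which lie inside the annotated span of the gene, are chr6:29272571-29272600 on the plus strand, with ACGTG in capitals.
Hilpda start: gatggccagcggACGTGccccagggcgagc

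*G0s2*, which encodes the other inhibitor of ATGL, was listed at 0 counts in all 8 libraries, on chromosome 1 from 193272160 to 193273188. It was 1 of 5435 genes with no counts (20.0% of the table). By counting error alone, 3 counts in a library would be between 0.0748 and 0.169 CPM here. RefSeq places no other gene over *G0s2*. Whether the zeros reflect the RNA or the way fragments were assigned to genes was not tested, so nothing is reported on its level. Ratios of *Pnpla2* and *Abhd5* to *G0s2* could not be formed.

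*Dgat2* and *Dgat1* encode unrelated enzymes for the same reaction, the addition of the last acyl chain of triglyceride. *Dgat2* (chromosome 7 from 99153663 to 99182713) was at 68.4, 82.2, 61.6 and 64.1 CPM in FA replicates 2, 3, 4 and 6, and at 35.9, 44.0, 43.8 and 43.1 CPM in DE replicates 1, 3, 5 and 7. All DE libraries were below all FA libraries. The mean went from 69.1 ± 9.19 to 41.7 ± 3.89 CPM (SD, n = 4), with a log2 fold change at -0.73 ± 0.12 (SE, adjusted p = 0.00686). When the test itself required a difference over 25%, the adjusted p was 0.0595 (range 1.46e-06 to 0.0595 over the alternatives), the only alternative of 17 in which *Dgat2* was not called. *Dgat1* (chromosome 15 from 76502012 to 76512021) was at 28.0, 37.7, 28.6 and 31.0 CPM in FA replicates 2, 3, 4 and 6, and at 22.9, 29.1, 31.3 and 20.0 CPM in DE replicates 1, 3, 5 and 7. DE replicates 3 and 5 lay among the FA libraries, while DE replicates 1 and 7, those numbered 11, lay below them. The log2 fold change of *Dgat1* was -0.27 (95% interval -0.61 to 0.06, adjusted p = 0.285). Among the libraries numbered 11 it was -0.54 (adjusted p = 0.0982).

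The ratio of *Dgat2* to *Dgat1* counts tested whether the 2 enzymes had moved by unequal amounts. It was 2.44, 2.18, 2.16 and 2.06 in FA replicates 2, 3, 4 and 6, and 1.56, 1.51, 1.40 and 2.15 in DE replicates 1, 3, 5 and 7. The difference of -0.44 in the mean log2 ratio did not pass (two-sided exact permutation p = 0.0571, also 0.0571 after adjustment). Without DE replicate 7, whose ratio was like those of FA, the difference was -0.57 (exact p = 0.0286, the smallest this design allows). With the 6 libraries numbered 11 it was -0.27 (exact p = 0.133), the smallest difference of the 10 alternatives.

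Per kb of exon, the order of the members in FA was *Pnpla2* (56.2 CPM per kb), *Dgat2* (30.5), *Plin2* (20.9), *Dgat1* (16.6), *Plin3* (15.1), *Plin4* (13.5), *Abhd5* (10.9), *Plin5* (10.8) and *Hilpda* (3.16). The ranges over libraries did not overlap between *Pnpla2* and *Dgat2*, *Dgat2* and *Plin2*, *Plin4* and *Abhd5*, or *Plin5* and *Hilpda*, and overlapped between the other neighbours in the order. In DE, *Plin5* was at 3.71 CPM per kb. That range, from 2.96 to 4.62, lay below that of *Abhd5* and overlapped that of *Hilpda*. *Dgat2*, at 18.4 CPM per kb in DE, overlapped *Plin2* at 17.7. *Plin5* thus ranked 8 in both groups, above only *Hilpda*, and overlapped *Abhd5* in FA but *Hilpda* in DE. The order depends on the exons counted. With the full annotation in place of its basic subset, chosen after the values were seen, *Plin2*, *Dgat1* and *Abhd5* were at 11.2, 10.2 and 5.78 CPM per kb in FA, and *Plin5*, at 10.8 in FA, came between *Plin2* and *Dgat1*. *Plin5* was then well above *Abhd5* in FA. *Pnpla2* and *Dgat2* were still the highest in FA, whereas in DE *Dgat2* (13.5) came after *Plin3* (14.9). *Plin5* and *Hilpda* were still the lowest in DE.

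**Figure D3:**
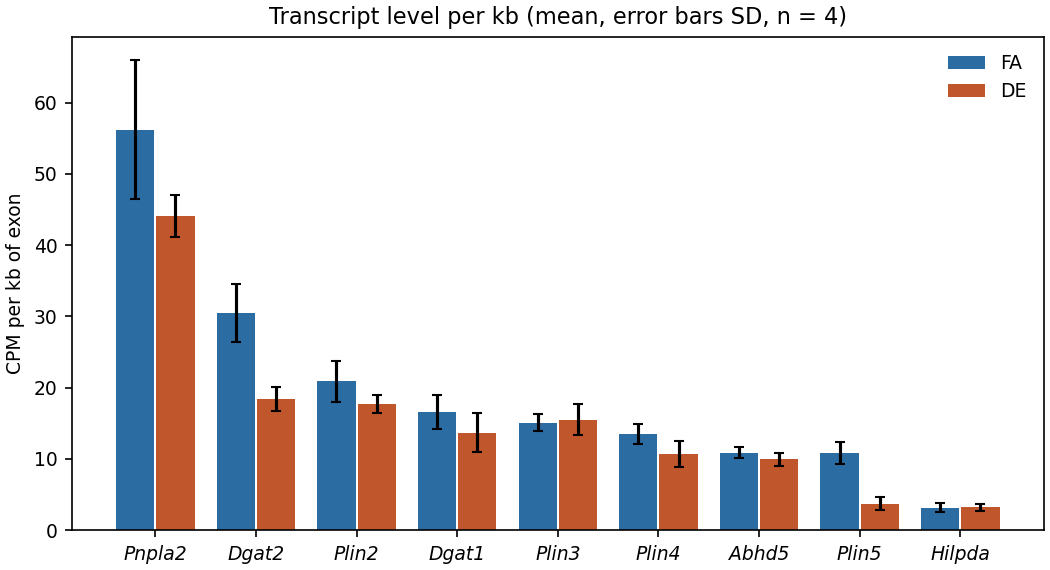
Level of the 9 members with counts in CPM per kb of exon, on a linear axis from 0, as means of 4 FA and 4 DE libraries with SD. *Pnpla2* is highest in both groups, and the bars of *Plin5* stand at 10.8 in FA and 3.71 in DE.

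The DE libraries differed among themselves along the number in their names. In 6 of the 9 members (*Plin2*, *Plin3*, *Plin5*, *Hilpda*, *Dgat1* and *Dgat2*), both libraries numbered 11 lay below both libraries numbered 12. Over all tested genes this held for 29.9%, and the reverse held for 30.4%. The number 12 is carried by DE libraries only, so an effect of what it marks cannot be told apart from variation among DE pups. The FA libraries, all numbered 11, also fell into closer pairs, as given above.

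Other genes of droplets and triglyceride were followed in a list of 40, of which 32 passed the filter. A total of 6 were called and all 6 were lower in DE, 2 droplet proteins, 2 genes of lipolysis and 2 of synthesis, where 5.80% of all tested genes were called and 2.22% were called lower. The median log2 fold change of the 32 was -0.10. With the filter, scaling and libraries used throughout, edgeR's quasi-likelihood test called 0 of them higher. At an unadjusted p under 0.05, 6 were higher and 11 lower, against 25.6% of all genes in either direction. DESeq2 called 8 lower and 1 higher, and called 1633 genes in all. Other settings of the quasi-likelihood test called *Lipa*, *Agpat5* (library totals alone) or *Lpin3* (without FA replicate 6) higher. Such settings also added *Lpin1* (without DE replicate 1) or *Gk* (without DE replicate 7) as lower. The groups did not overlap for 9 genes lower and 2 higher in DE, against 7.26% and 7.43% of all genes.

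In lipolysis, *Lipe* encodes hormone-sensitive lipase, which acts after ATGL. It was at 20.2, 21.9, 18.1 and 20.3 CPM in FA replicates 2, 3, 4 and 6 and at 9.99, 9.58, 8.13 and 10.2 CPM in DE replicates 1, 3, 5 and 7, with every DE library well below the lowest FA library. This gave -1.09 ± 0.11 on the log2 scale (SE, adjusted p = 0.000552). The study also names *Lipe* from these libraries, so its call is not independent evidence. *Aqp7*, a channel through which glycerol leaves the cell, fell to 2.02 ± 0.317 CPM in DE from 3.98 ± 0.398 CPM in FA (SD, n = 4), or by 0.98 on the log2 scale. Its call was lost with the 6 libraries numbered 11 (-0.80, adjusted p = 0.0690, range 3.53e-05 to 0.0690) and with the 25% difference built into the test (adjusted p = 0.0547). *Mgll*, which encodes the lipase for the last acyl chain, had a higher estimate in DE, at 70.4 ± 7.01 and 95.9 ± 24.7 CPM (log2 fold change 0.45, 95% interval 0.09 to 0.80, adjusted p = 0.117). *Lipa*, the lysosomal acid lipase, was at 22.7 ± 1.70 and 31.9 ± 5.30 CPM (log2 fold change 0.49, adjusted p = 0.0509), just short of the threshold. It was called higher in 7 of the 17 alternatives, namely DESeq2, the likelihood ratio test, library totals alone, no filter, a mean of at least 1 CPM, the 6 libraries numbered 11, and without DE replicate 5.

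In synthesis, *Gpam* encodes the mitochondrial acyltransferase of the first step. It was at 59.1, 36.3, 54.9 and 43.0 CPM in FA replicates 2, 3, 4 and 6 and at 27.4, 15.3, 12.4 and 24.1 CPM in DE replicates 1, 3, 5 and 7, and its FA libraries varied more than those of any called member. This gave -1.29 ± 0.24 on the log2 scale (SE, adjusted p = 0.0141). With the 25% difference built into the test, *Gpam* was not called (adjusted p = 0.0575, range 1.51e-05 to 0.0575), and without FA replicate 2 it only just passed (adjusted p = 0.0499). Unlike *Plin5*, *Gpam* was higher in the DE libraries numbered 11 than in those numbered 12, and with the former alone it was -0.91. *Agpat3*, an acyltransferase of glycerolipid synthesis, went from 156.2 ± 8.29 to 88.2 ± 2.70 CPM (SD, n = 4), with a log2 fold change at -0.82 ± 0.09 (SE, adjusted p = 0.000552). Its groups were tight, from 144.4 to 163.0 CPM in FA and from 85.5 to 90.6 CPM in DE. *Gpat4*, another acyltransferase of the first step, differed by -0.06 on the log2 scale, at 61.3 ± 4.67 and 58.9 ± 1.86 CPM (95% interval -0.25 to 0.14). *Gk*, glycerol kinase, had a log2 fold change of -0.44 (95% interval -0.72 to -0.16, adjusted p = 0.0677).

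Among droplet proteins, *Cidea*, which promotes the fusion of droplets, was at 13.8, 19.0, 15.3 and 17.3 CPM in FA replicates 2, 3, 4 and 6 and at 7.99, 8.81, 9.83 and 7.83 CPM in DE replicates 1, 3, 5 and 7. The groups lay apart, with a log2 fold change at -0.92 ± 0.13 (SE, adjusted p = 0.00373). *Fitm2*, which acts in the budding of droplets from the endoplasmic reticulum, went from 9.88 ± 1.28 to 6.58 ± 0.135 CPM (SD, n = 4), -0.58 on the log2 scale (adjusted p = 0.0249). Its call was lost without FA replicate 2 (-0.57, adjusted p = 0.0857), without FA replicate 4 (-0.54, adjusted p = 0.0911), without DE replicate 3 (-0.58, adjusted p = 0.0736), with the 6 libraries numbered 11 (-0.59, adjusted p = 0.100), with the number as a term (-0.59, adjusted p = 0.0701) and with the 25% difference built into the test (adjusted p = 0.222). The related *Fitm1* was at 35.3 ± 4.94 and 30.9 ± 4.38 CPM and was not called. *Rab18*, a small GTPase on droplets, was at 115.9 ± 3.13 and 105.2 ± 3.36 CPM, with a log2 fold change of -0.14 (95% interval -0.32 to 0.04).

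**Figure D4:**
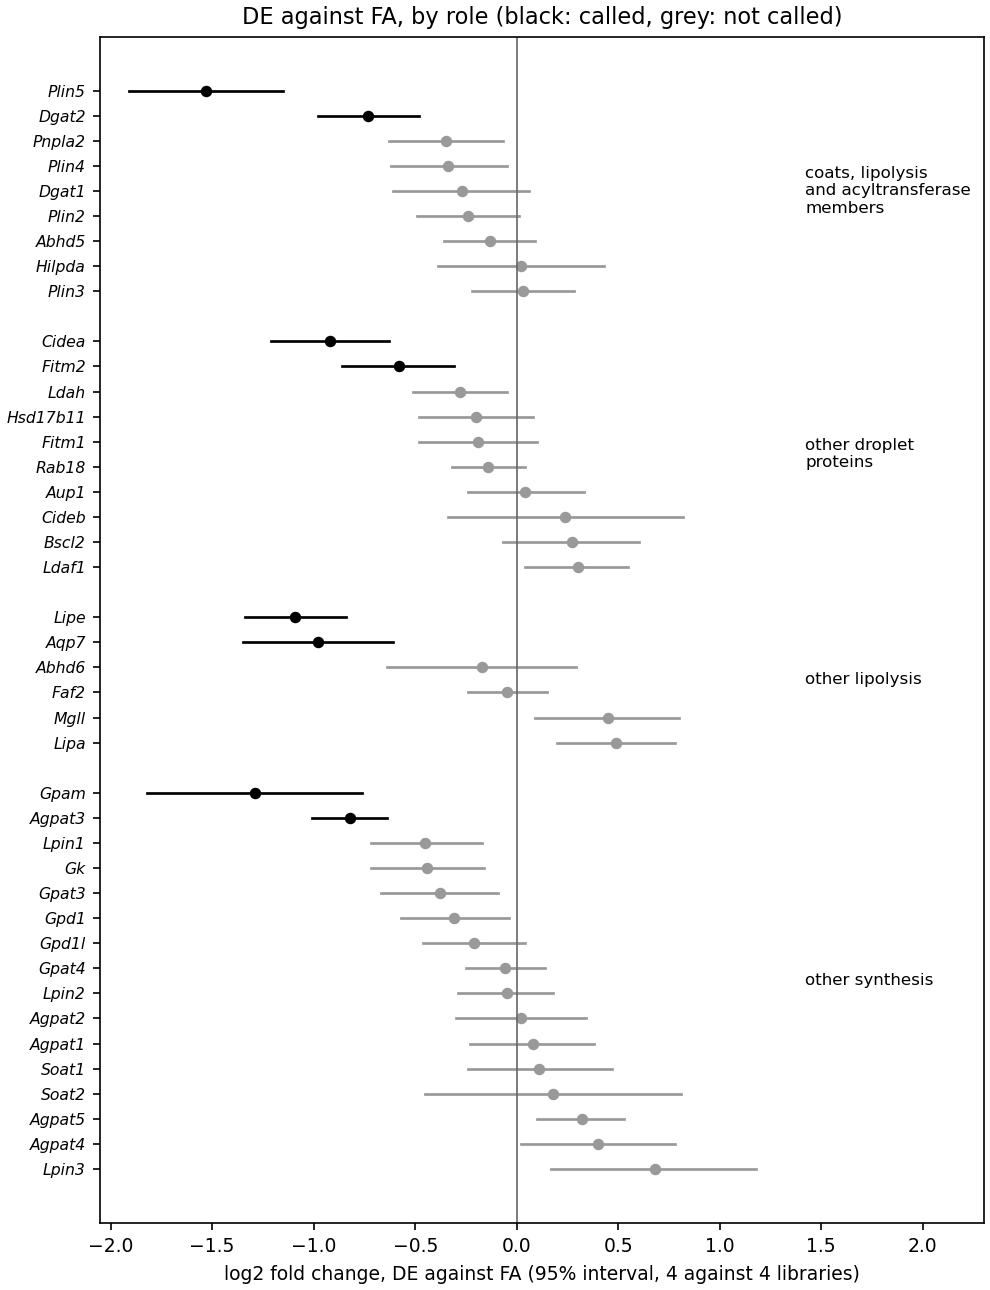
Log2 fold change of DE against FA with 95% intervals (edgeR, 4 against 4 libraries) for 9 members and 32 other genes of droplets and triglyceride, grouped by role, with called genes in black and others in grey. All 8 called genes lie left of 0, from -1.53 for *Plin5* to -0.58 for *Fitm2*.

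**Figure D5:**
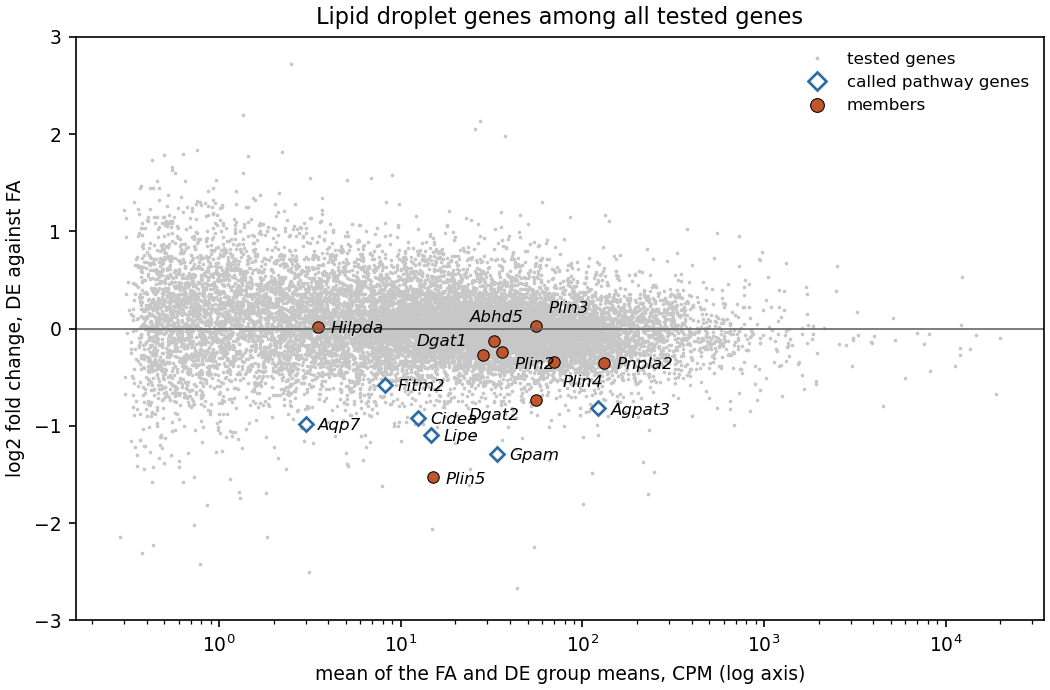
Log2 fold change of DE against FA (linear axis) against the mean of the group means in CPM (log axis) for all tested genes, with the 9 members as filled circles and the 6 other called genes of the pathway as open diamonds. A total of 4 genes beyond 3 on the log2 scale are outside the axis, and *Plin5*, at -1.53, is the lowest of the members.

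Markers of other cells were read from the same libraries, since droplets are also found in adipocytes, macrophages and fibroblasts. Of 9 adipocyte markers, 6 were too low to test. *Adipoq*, *Lep*, *Plin1* and *Cidec* were each at 0.143 CPM or less in every library. *Fabp4*, which endothelial cells also express, ran from 268.4 to 423.4 CPM in FA and from 261.4 to 531.3 CPM in DE, and *Ucp1* reached 1.98 CPM. The ninth, *Cidea*, is described above. The 6 leukocyte and macrophage markers summed to between 11.9 and 18.0 CPM in FA and between 14.8 and 25.4 CPM in DE, and 0 of the 5 tested were called by edgeR's quasi-likelihood test (1 higher at an unadjusted p under 0.05, *Cd68*). The 8 fibroblast markers summed to between 2008 and 3461 CPM in FA and between 3655 and 6177 CPM in DE, and 2 of them, *Col1a1* and *Dcn*, were called higher. All 8 fibroblast estimates were higher in DE, 6 of them at an unadjusted p under 0.05, with a median log2 fold change of 0.66. The 10 cardiomyocyte markers summed to between 71085 and 76963 CPM in FA and between 62367 and 73301 CPM in DE, with *Myh6* and *Pln* called lower and *Myh7* called higher. The part of these differences in the lower *Plin5* and *Dgat2* was not tested. In bulk RNA, fewer cells of a type and less RNA per cell cannot be told apart. Of the remaining lists, 0 of 6 endothelial, 0 of 2 hepatocyte, 0 of 3 erythroid, and 0 of 5 smooth muscle and pericyte markers tested were called by the same test. At an unadjusted p under 0.05, 2, 1, 0 and 1 of these differed.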

How the data were processed

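Per the labels and methods, the authors aligned poly-A selected, stranded libraries to mm10 with Tophat, kept marked duplicates, and used featureCounts to assign fragments to genes. The deposited file holds these raw counts, 1 line per Entrez gene. How strand and reads on several genes were handled is not given in the sources used here. Whether the marked duplicates were counted is not given there either. The limit of 3 counts given for *G0s2* covers counting error only, whereas the 95% intervals of log2 fold changes come from the fitted model and include the spread between libraries.

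From these counts, Entrez genes were matched to RefSeq symbols of GRCm38.p6 (25275 of 27179), with *Ldaf1* read under its older symbol *Tmem159*. Genes were filtered with filterByExpr at a minimum count of 10, scaled with TMM and compared between DE and FA over all 8 libraries by the quasi-likelihood functions of edgeR 4.0.16 (R 4.3.3) without covariates, with Benjamini-Hochberg adjustment. The methods name edgeR, the 25% difference and the adjusted p-value of 0.05, and state n = 3 per group without naming the libraries. Standard errors are the log2 fold change divided by the root of F. Ratios within a library were compared by exact permutation over libraries. CPM per kb used the union of exons in the GENCODE M21 basic annotation, with the full annotation as an alternative added later. Alternatives were DESeq2 1.42.0, the likelihood ratio test, the 25% difference built into the test, relative log expression factors, library totals alone, no filter, a mean of at least 1 CPM, the 11 or 12 of the sample name as a covariate, the 6 libraries numbered 11, and each library left out in turn. On simulated counts for 14966 genes, the quasi-likelihood test recovered 187 of 200 changed genes with 8 false calls. All planted changes were larger than those estimated for *Dgat2* and for the uncalled members. Every gene was given the same variation between libraries, with no grouping of libraries beyond FA and DE. Recovery of smaller changes was not tested.

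Members and lists were chosen with earlier results of these data known. Named genes were the 10 members and, of the 40 pathway genes, those called and those at a mean of 50 CPM or more. *Lipa* and the other uncalled genes below that level were named after their values were seen. In the erythroid list, 1 of 4 markers was not matched.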

Additional observations from a re-analysis of the deposited data

Results flagged for a closer look

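*Dgat2* in DE replicate 1, at 35.9 CPM, stood below the other DE libraries, which lay between 43.1 and 44.0 CPM. The gap of 0.888 of the group's range exceeded Dixon's 95% critical value for 4 samples. This was 1 of 22 groups of values examined, and chance flags about 1 in 20. Without DE replicate 1, the log2 fold change of *Dgat2* was -0.67 (adjusted p = 0.0134, edgeR's quasi-likelihood test), so the lower level in DE does not rest on that library.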

How the results depend on the processing

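The call of *Plin5* held under all 17 alternatives and that of *Dgat2* under 16. *Lipe*, *Cidea* and *Agpat3* also held under all 17, *Gpam* under 16, *Aqp7* under 15 and *Fitm2* under 11. With the 25% difference built into the test, 114 genes, 1 member (*Plin5*) and 3 pathway genes were called, which by construction asks for a larger difference. DESeq2 called 1633 genes and the likelihood ratio test 1603, with 2 members and 9 pathway genes each. The number in the sample name as a term left 448 genes, and the 6 libraries numbered 11 left 260, fewer samples, with 2 members in each. With single libraries left out, the count of genes ran from 237 to 1168, that of members from 2 to 3 and that of pathway genes from 5 to 7. Library totals alone changed the split of called genes, 217 lower and 803 higher (21.3% lower) against 332 and 536 (38.2% lower), and added *Lipa* and *Agpat5* as higher. With the 25% difference built in, the split was 70 and 44 (61.4% lower), and without FA replicate 3 it was 218 and 215 (50.3% lower). The causes were not tested. For *Plin5* to *Plin2*, the difference was -1.54 with the 6 libraries numbered 11 (exact p = 0.0667, the smallest possible there) and from -1.43 to -1.24 with single libraries left out. For *Dgat2* to *Dgat1* the difference was -0.27 with the 6 libraries numbered 11 (exact p = 0.133), and the range with single libraries left out was -0.57 to -0.36. With 1 count added, the ratios differed by -1.32 and -0.43. No paired analysis was possible because the groups share only 1 replicate number, 3, and nothing ties those pups to each other. Ratios to *G0s2* were not run, since it was listed at 0. *Hilpda* had as few as 48 counts in a library, and *G0s2* had 0 in all.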
